A study of Mus musculus with 15 samples.

Results

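The transcripts of 10 circadian clock genes were followed in the livers of C57BL/6 mice, an inbred laboratory strain, after 3 days on 1 of 3 diets. The genes were 3 activators (Arntl, also called Bmal1, Clock and Npas2), 5 repressors (Nr1d1, Nr1d2, Per1, Per2 and Ciart) and 2 output factors (Dbp and Tef). They were chosen by name as core components of the clock, with earlier results of these data known. All 10 were among the 13967 of 25731 genes that had enough reads to be tested. Total RNA had been sequenced from 5 livers of mice fed a ketogenic diet (little carbohydrate, much fat), 5 fed a high-fat diet and 5 fed chow. Mice received either test diet at the age of 12 weeks. Neither the labels nor the series text gives the hour at which livers were taken, nor the sex, food intake or, for chow, the age of the mice. The study asked how a ketogenic diet leads to insulin resistance, steatosis and fibrosis of the liver. The comparison of the clock genes asks whether its activator and repressor arms moved in opposite directions.

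The clock is a feedback loop of transcription in nearly every cell. ARNTL pairs with CLOCK or NPAS2, and the pair binds E-box sequences and switches on the Per, Cry, Nr1d, Ciart and Dbp genes. PER and CRY proteins, and CIART, then repress the pair, and the nuclear receptors NR1D1 and NR1D2 (REV-ERBs) repress Arntl and Npas2. DBP and TEF, with HLF, bind D-box sequences and drive rhythmic genes of detoxification and lipid metabolism. In mouse liver the activators Arntl and Npas2 and the targets of the pair peak at opposite times of day, and meals can set the phase. A difference between diets in the hour of sampling or in the phase of the clock therefore cannot be told apart from a difference in its daily mean level.

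Promoters were read from RefSeq windows of the build the submitters name (GRCm38.p6), 250 bases before to 50 after each start. Windows were found for 9 of the 10 genes, all but Per2. The E-box CACGTG, which reads the same on both strands, was found in 7.15% of all 32851 windows, and in Per1, Ciart and Tef. Ciart carried 3 of them, as did only 29 windows in all (0.0883% with 3 or more). Its stretch from 130 to 31 bases before the start is shown first because Ciart rose more than any other of the 10 genes, then the sites of Per1 and of both starts of Tef, with the E-box in capitals.
Ciart, chr3:95882259-95882358, minus strand: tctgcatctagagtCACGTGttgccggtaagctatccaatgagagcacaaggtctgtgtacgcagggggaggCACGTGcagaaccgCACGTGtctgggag
Per1, chr11:69098771-69098800, plus strand: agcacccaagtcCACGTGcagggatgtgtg
Tef, first start, chr15:81802534-81802563, plus strand: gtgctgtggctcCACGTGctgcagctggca
Tef, second start, chr15:81811264-81811293, plus strand: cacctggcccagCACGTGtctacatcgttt

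The element bound by RORs and REV-ERBs was searched as TAGGTCA on both strands and lay in 2.61% of windows. Among the 9 genes with a window it was found in Arntl alone, 31 bases after its second start, and is shown because Arntl is the known target of those receptors.
Arntl, chr7:113207530-113207559, plus strand: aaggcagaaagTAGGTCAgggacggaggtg
The D-box, searched as TTANGTAA on both strands, lay in 2.32% of windows and in none of the 9 genes. Per3, a further clock gene described below, had it at 2 sites before its start. None of the printed matches overlapped another motif. Such matches are letters in a short window and were not measured as binding sites here.

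Libraries held between 30121672 and 50914494 estimated reads. Levels are given as normalised CPM (read counts scaled to a common library size) within a gene, and as TPM, which also divides by transcript length, between genes. The 5 hepatocyte markers summed to 63330 to 85570 CPM per library, which matches the label of the tissue. Most of this sum was Alb, with diet means of 53630 to 67014 CPM, while Hnf4a had means of 531 to 546 CPM. Summed markers of other cells were low: for example, 73.1 to 149 CPM for 6 Kupffer cell genes and 0.973 to 2.15 CPM for 4 T cell genes. The 5 erythroid markers summed to 338 to 555 CPM in ketogenic, 399 to 1167 in high-fat and 735 to 1076 in chow livers. All 5 were lower on the ketogenic diet than on chow, as were all 5 B and plasma cell markers (2.69 to 3.74 against 5.25 to 14.9 CPM). The latter rest on few reads, with 3 to 12 per ketogenic library for Cd79a. Each of these erythroid and B cell genes passed the test used below, where 14.6% of all genes fell. The part of this shift in the results below was not tested. In whole liver, fewer cells of a type and less RNA per cell cannot be told apart.

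By TPM, Tef was the most abundant of the 10 genes on each diet, with 36.3 ± 3.33 in ketogenic, 24.9 ± 3.28 in high-fat and 17.4 ± 2.94 in chow livers (SD, n = 5). On chow it was followed by Arntl (11.0 ± 2.20 TPM) and Clock (6.75 ± 0.79 TPM), and Nr1d1 was the lowest (0.656 ± 0.237 TPM). On the ketogenic diet Nr1d2 came second (12.0 ± 2.10 TPM), ahead of Clock, Per2 and Arntl, whose ranges overlapped its own. Npas2 was the lowest there, with 0.222 ± 0.108 TPM. The low levels of Npas2 and Nr1d1 rest on few reads, 10 to 44 per ketogenic library for Npas2 and 30 to 122 per library for Nr1d1.

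On the ketogenic diet, 8 of the 10 genes differed from chow. Arntl and Npas2 fell, and Clock, Nr1d2, Per2, Ciart, Dbp and Tef rose (edgeR's quasi-likelihood test, adjusted p under 0.05). Of all genes tested, 30.8% differed in this comparison, 16.2% upward and 14.6% downward. The libraries of the diets did not overlap for 6 of the 10 genes, 4 higher and 2 lower, against 22.3% of all genes. The median log2 fold change of the 10 was 0.59, beside -0.01 over all genes. Because the 10 were chosen with earlier results of these data known, these counts do not test the set. The repressors and output factors that passed all rose, whereas the activators divided.

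Npas2 (chr1:39193731-39363236), the partner that can stand in for CLOCK, gave the largest fall. It stood at 0.567, 0.408, 0.273, 0.874 and 0.903 CPM in the ketogenic livers, 1.39, 0.451, 1.36, 2.79 and 4.42 in the high-fat livers, and 1.33, 3.07, 8.26, 11.5 and 4.84 in the chow livers. Every ketogenic liver was below every chow liver, the chow livers themselves spread widely, and the high-fat livers overlapped both. The ketogenic level was 9.36-fold lower than chow (log2 fold change -3.23, SE 0.67, adjusted p = 0.00271).

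Arntl (chr7:113207465-113314126), the obligate partner of both, showed a small and even fall. Its ketogenic livers held 18.5, 18.8, 18.8, 20.7 and 21.6 CPM, its high-fat livers 26.3, 22.0, 24.4, 29.2 and 27.1, and its chow livers 23.8, 25.4, 31.0, 31.8 and 25.4. The ketogenic livers lay below all livers of the other diets. Arntl was 1.40-fold lower than on chow (log2 -0.48, SE 0.09, adjusted p = 0.000405) and 1.31-fold lower than on the high-fat diet (log2 -0.39, SE 0.09, adjusted p = 0.00359). On log2(TPM + 1) with limma neither call was made (adjusted p = 0.447 and 0.642). There the median of all genes itself moved by 0.27 and 0.28, and relative to that shift Arntl was -0.41 and -0.37.

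Clock (chr5:76209868-76304792), the histone acetyltransferase partner of ARNTL, went the other way by a small amount. Ketogenic livers had 69.2 to 81.6 CPM (median 73.8) and chow livers 60.0 to 72.0 (median 63.7), with overlap (log2 0.19, SE 0.07, adjusted p = 0.0382). The call was lost without any 1 of ketogenic livers 2, 3, 4 and 6 or chow livers 15, 16 and 18, and with a stricter filter on low counts, with adjusted p up to 0.112. The rise was larger on scales that take transcript length into account. It was 0.31 with effective length offsets (adjusted p = 0.00325). With limma on log2(TPM + 1) it was 0.57 (adjusted p = 0.00117), which is 0.30 above the all-gene median. Both scales use the estimated split of reads among Clock transcripts, described below, and the part of that split was not tested.

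**Figure D1:**
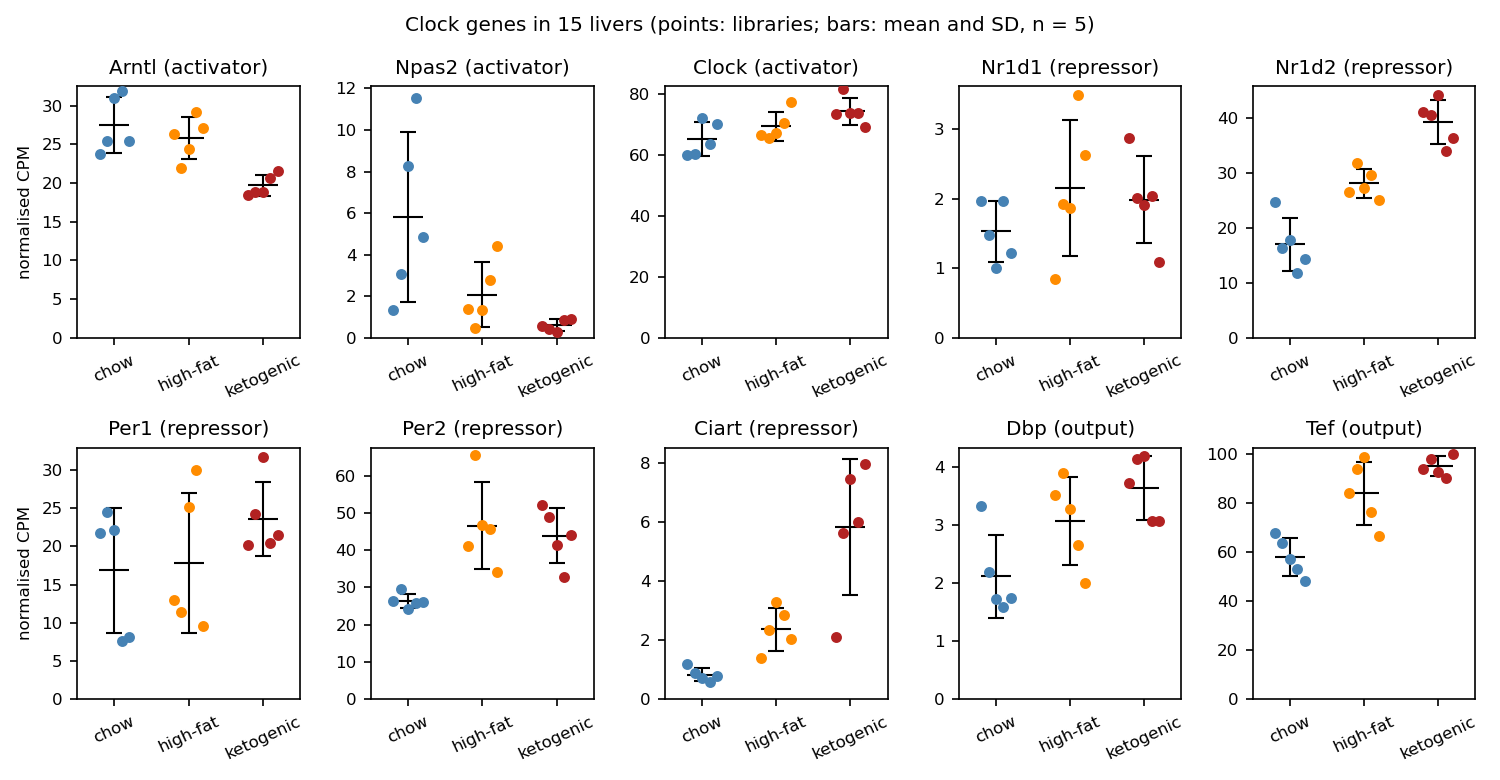
Normalised CPM (vertical axes, each from 0) of the 10 clock genes in chow, high-fat and ketogenic livers. Points are libraries, and bars give the mean and SD (n = 5). Npas2 and Arntl are lowest on the ketogenic diet, Nr1d2, Ciart, Dbp and Tef have their highest means there, and Per2 is above chow on both diets.

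Among the repressors, Ciart (chr3:95878503-95882251), also called Chrono, rose most. It had 2.10, 5.64, 7.47, 6.00 and 7.98 CPM in the ketogenic livers, 1.39, 2.34, 3.28, 2.85 and 2.03 in the high-fat livers, and 1.18, 0.877, 0.722, 0.589 and 0.784 in the chow livers. Each liver on either diet exceeded every chow liver, and ketogenic liver 2 alone fell within the high-fat range. The rise was 6.98-fold on the ketogenic diet (log2 2.80, SE 0.34, adjusted p = 2.04e-05) and 2.86-fold on the high-fat diet (log2 1.52, SE 0.35, adjusted p = 0.00999). The ketogenic level was also 2.44-fold above the high-fat level (log2 1.29, SE 0.30, adjusted p = 0.00613). On log2(TPM + 1) with limma the ketogenic rise was 1.84, or 1.57 relative to the all-gene median (adjusted p = 9.28e-05), and the high-fat rise was not called, at 0.78 (adjusted p = 0.139). With effective length offsets the ketogenic rise was 2.29 (adjusted p = 0.000122).

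Nr1d2 (chr14:18204054-18239127), which encodes REV-ERBbeta, stepped up from chow to high-fat to ketogenic. Its levels were 41.1, 40.7, 44.3, 34.1 and 36.5 CPM in ketogenic livers, 26.5, 31.9, 27.4, 29.7 and 25.2 in high-fat livers, and 24.8, 16.3, 17.9, 11.9 and 14.3 in chow livers. The 3 diets did not overlap. Nr1d2 was 2.31-fold above chow on the ketogenic diet (log2 1.21, SE 0.15, adjusted p = 2.5e-05) and 1.65-fold on the high-fat diet (log2 0.72, SE 0.15, adjusted p = 0.00525). The step from high-fat to ketogenic was 1.40-fold (log2 0.48, SE 0.15, adjusted p = 0.025), and was lost without any 1 of ketogenic livers 2, 3 and 4 or high-fat livers 11 and 14, with adjusted p up to 0.0608.

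Per2 (chr1:91415982-91459324), a core repressor whose protein binds CRY, rose on both diets. It had 52.0, 48.9, 41.4, 32.8 and 44.2 CPM in the ketogenic livers, 41.0, 65.5, 46.8, 45.7 and 34.1 in the high-fat livers, and 26.4, 29.5, 24.3, 25.8 and 26.1 in the chow livers. The chow livers were tightly grouped and lay below all others. Per2 was 1.66-fold above chow on the ketogenic diet (log2 0.73, SE 0.15, adjusted p = 0.0019) and 1.76-fold on the high-fat diet (log2 0.82, SE 0.15, adjusted p = 0.0027). Between the 2 diets it differed by -0.09 on the log2 scale (95% interval -0.41 to 0.23).

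The other repressors did not pass in any comparison. Per1 (chr11:69095217-69109960), the other Per gene of this set and one that glucocorticoids also induce, scattered within diets. It ran from 20.1 to 31.7 CPM in ketogenic livers, from 9.56 to 29.99 in high-fat livers and from 7.66 to 24.5 in chow livers. The difference from chow was 0.48 on the ketogenic diet (95% interval -0.38 to 1.34, adjusted p = 0.402), so the data do not exclude a change as large as that of Per2. Nr1d1 (chr11:98767932-98775333), which encodes REV-ERBalpha, ran from 1.10 to 2.88 CPM, from 0.853 to 3.49 and from 1.01 to 1.98. Its log2 fold changes against chow were 0.38 and 0.48 (adjusted p = 0.399 and 0.328). Nr1d1 overlaps Thra on the opposite strand, and no source used here says whether strand was used in the counting, so its reads are uncertain.

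Both output factors rose on the ketogenic diet. Tef (chr15:81802421-81826863) had 93.9, 98.0, 92.7, 90.1 and 100 CPM in ketogenic livers, 84.0, 93.8, 98.7, 76.4 and 66.6 in high-fat livers, and 67.8, 63.5, 57.1, 53.1 and 48.3 in chow livers. All ketogenic livers and 4 of 5 high-fat livers exceeded the highest chow liver. The rise was 1.64-fold (log2 0.71, SE 0.10, adjusted p = 3.29e-05) and 1.45-fold (log2 0.53, SE 0.10, adjusted p = 0.00195). Dbp (chr7:45705088-45710203) had 3.73, 4.13, 4.20, 3.08 and 3.07 CPM in ketogenic livers, 3.52, 3.90, 3.28, 2.66 and 2.00 in high-fat livers, and 3.33, 2.19, 1.73, 1.59 and 1.74 in chow livers. Chow liver 15 lay among the ketogenic livers, and the other chow livers were below all of them. Dbp rose 1.71-fold on the ketogenic diet (log2 0.78, SE 0.20, adjusted p = 0.00634). On the high-fat diet its value was 0.54 (adjusted p = 0.0817), and it passed without high-fat liver 14 or without chow liver 15 (adjusted p = 0.0337 and 0.0138). Dbp overlaps Sphk2 on the opposite strand, with the same uncertainty as Nr1d1.

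On the high-fat diet 4 of the 10 genes rose against chow (Nr1d2, Per2, Ciart and Tef) and none fell, where 8.30% of all genes rose and 7.32% fell (15.6% in either direction). Nr1d2, Per2 and Ciart did so with no overlap of the livers, against 10.3% of all genes. The chow livers were the same as in the ketogenic comparison, so these counts are not independent of it. No activator passed: Arntl differed by -0.09 (adjusted p = 0.517), Clock by 0.09 (adjusted p = 0.392) and Npas2 by -1.49 (95% interval -2.78 to -0.20, adjusted p = 0.111). Between the ketogenic and high-fat diets Nr1d2 and Ciart rose and Arntl fell, 3 of 10 against 26.1% of all genes (13.1% rose, 13.0% fell). That share is close to the background. Of these, Nr1d2 and Arntl did not overlap, against 17.0% of all genes.

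**Figure D2:**
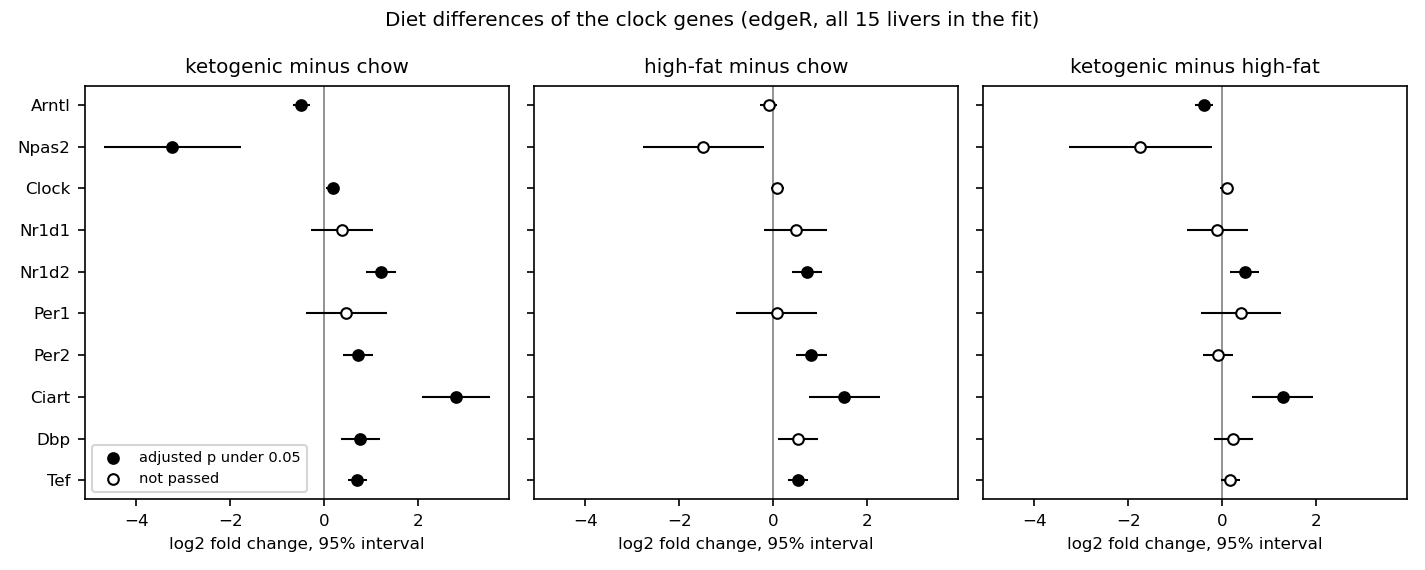
Log2 fold changes (horizontal axes) of the 10 clock genes in the 3 comparisons of diets, with 95% intervals. Filled points passed an adjusted p of 0.05 and open points did not. Npas2 and Ciart lie farthest from 0, on opposite sides, in the comparison of the ketogenic diet with chow.

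As a description of the arms, the mean log2 CPM of the 5 repressors was subtracted from that of the 3 activators in each liver. This balance was -0.47 ± 0.36 in ketogenic livers (range -1.0 to -0.14), 0.53 ± 0.59 in high-fat livers (-0.19 to 1.30) and 1.72 ± 0.76 in chow livers (0.62 to 2.52; SD, n = 5). All ketogenic livers were below all chow livers, and 1 high-fat liver fell within the ketogenic range. On log2(TPM + 1) the means were -0.41, 0.14 and 0.79, and without Ciart they were -0.80, 0.013 and 1.01, in the same order of diets. Npas2 weighs most in it, as the gene that differed most. On the ketogenic diet against chow its log2 fold change was -3.23, beside -0.48 for Arntl and 0.19 for Clock. No balance without Npas2 was made. Against chow, the ketogenic genes that passed were Npas2 and Arntl, which fell, and Nr1d2, Per2 and Ciart, which rose, with Clock the only activator that went with the repressors. Left out of the repressor arm were Cry1, Cry2, Bhlhe40 and Bhlhe41, which did not pass in this comparison, and Per3, which rose.

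The genes also varied together among livers of 1 diet, which does not rest on the difference between diets. In each diet the liver with the least Npas2 had the most Dbp, and the liver with the most Npas2 had the least Dbp. On the ketogenic diet these were livers 4 (0.273 and 4.20 CPM) and 8 (0.903 and 3.07 CPM). On the high-fat diet they were livers 10 (0.451 and 3.90 CPM) and 14 (4.42 and 2.00 CPM), and on chow livers 15 (1.33 and 3.33 CPM) and 18 (11.5 and 1.59 CPM). In each diet the liver with the most Npas2 thus bore a higher label number than the liver with the least. Label numbers also run from 2 to 8 on the ketogenic diet, 9 to 14 on the high-fat diet and 15 to 19 on chow. The labels do not say what these numbers stand for. The part of their order in the pairs and in the diet differences was not tested.

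Over all 15 livers, with the diet mean taken out of the log2 CPM, Npas2 and Dbp gave Pearson's r = -0.942 and Spearman's rho = -0.925. Permutation of livers within diets gave p = 1e-05 for each, the smallest that 100000 resamples allow, and adjusted p = 0.00045 over the 45 pairs of the 10 genes. Without the 2 livers farthest from the median of Npas2, r was -0.921. Leaving out each liver in turn gave -0.957 to -0.925. Among 13966 other tested genes, Npas2 had the lowest r with Dbp, and Dbp the lowest with Npas2. The next lowest values were -0.865 and -0.867.

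**Figure D3:**
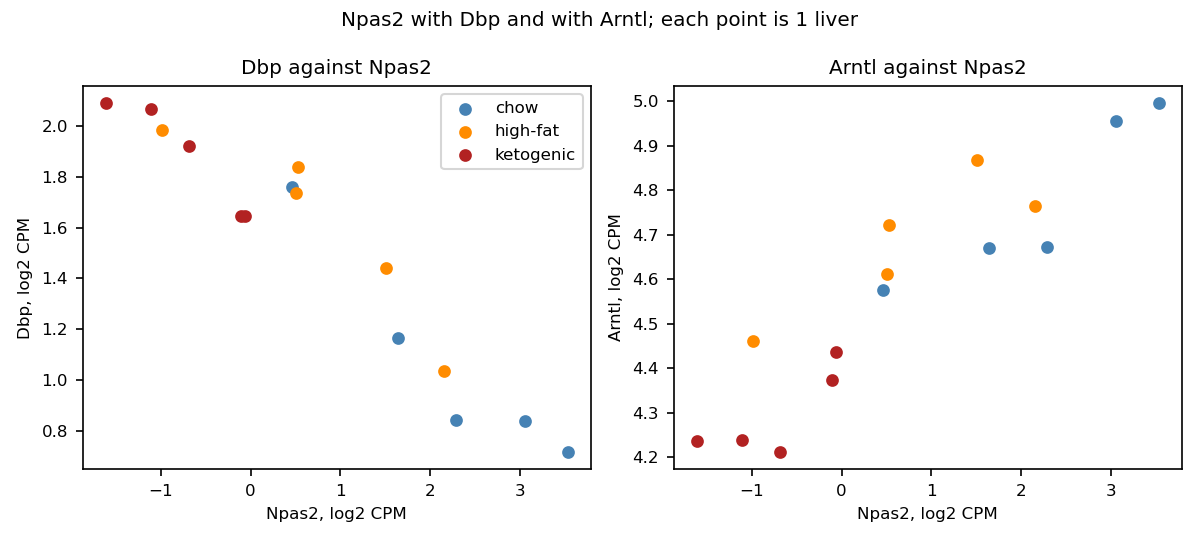
Dbp (left) and Arntl (right) against Npas2, both axes in log2 CPM, with each point 1 liver coloured by diet. Within each diet Dbp is lower where Npas2 is higher, and Arntl is higher.

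Of the 45 pairs, 6 passed with r (14 at an unadjusted p under 0.05). Arntl and Npas2 varied together (r = 0.886, p = 0.00026, adjusted p = 0.00585; rho = 0.843, p = 0.00162, adjusted p = 0.0365; r = 0.864 without the 2 farthest livers). Both went against Dbp, since Arntl and Dbp gave r = -0.753 (p = 0.00518, adjusted p = 0.0389; rho = -0.711, p = 0.0084; r = -0.733 without 2 livers). Nr1d2, a repressor of Npas2, went against it (r = -0.737, p = 0.00433, adjusted p = 0.0389; rho = -0.614, p = 0.0376; r = -0.553 without 2 livers). It went with Dbp (r = 0.774, p = 0.00205, adjusted p = 0.0308; rho = 0.675, p = 0.0119; r = 0.597 without 2 livers). Dbp and Tef also went together (r = 0.782, p = 0.00421, adjusted p = 0.0389; rho = 0.632, p = 0.0268; r = 0.622 without 2 livers), but not among the ketogenic livers alone, where r was 0.0124 beside 0.883 in high-fat and 0.838 in chow livers (5 livers each). By rho, only Npas2 with Dbp and Arntl with Npas2 passed the adjustment.

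Read by role, all 6 pairs of an activator with an output factor had r below 0, as had 13 of 15 pairs of an activator with a repressor, of which 1 passed. Repressors and output factors had r above 0 in 8 of 10 pairs. These pairs share genes and livers, so they are not separate observations. No share over pairs of all genes was taken, and the counts of signs are a description. On log2(TPM + 1) the pairs of an activator with a repressor turned, with 11 of 15 above 0 and none that passed, and 2 of 6 pairs of an activator with an output factor were above 0. Among the 5 ketogenic livers alone, too few for a test, 3 of those 6 pairs were above 0 in log2 CPM (Arntl with Tef 0.225, Npas2 with Tef 0.0927, Clock with Dbp 0.665). Nr1d1 was apart from this pattern, with r from -0.185 (Tef) to 0.138 (Nr1d2) and no pair that passed.

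**Figure D4:**
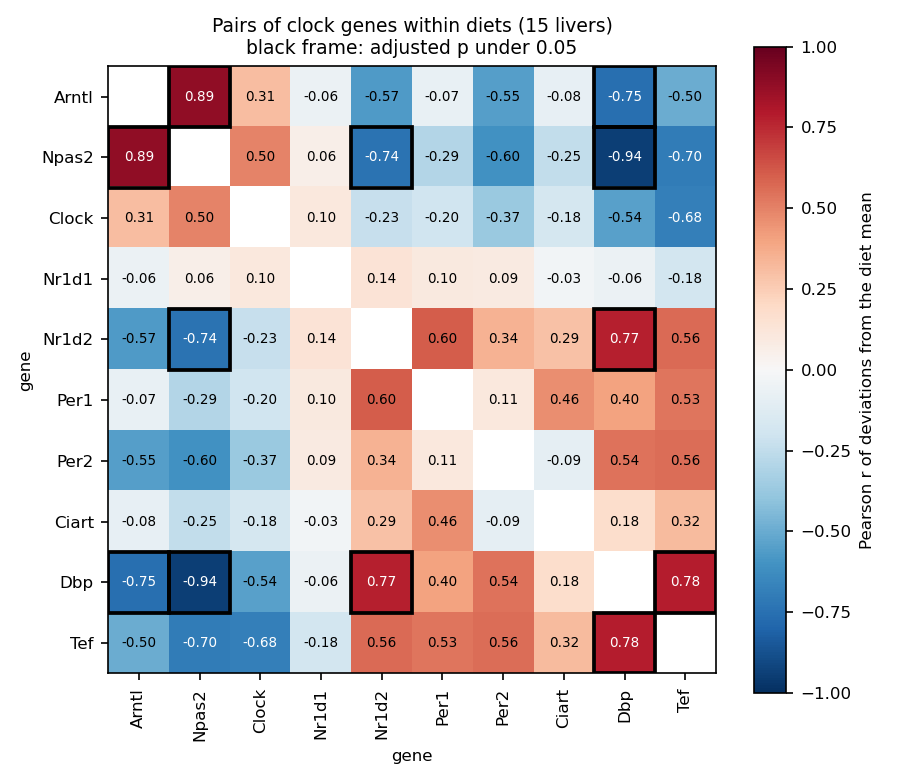
Pearson's r between each pair of the 10 clock genes over 15 livers, after the mean of each diet was taken out (rows and columns are genes, colour from -1 to 1). Black frames mark the 6 pairs with adjusted p under 0.05. Arntl, Npas2 and Clock are negative with Dbp and Tef on this log2 CPM scale, which was not so for 2 of those 6 pairs on log2(TPM + 1).

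The sign of r depended on the scale for some of the 45 pairs. The 6 pairs that passed on log2 CPM kept the sign of r, but their strength and calls changed. The sign of rho was not kept for Npas2 with Nr1d2, at -0.614 on log2 CPM and 0.0536 on log2(TPM + 1). On log2(TPM + 1), 35 of 45 pairs had r above 0, 5 passed and all of those were positive. There Npas2 with Dbp gave -0.547 (adjusted p = 0.201), Npas2 with Nr1d2 -0.204 and Arntl with Dbp -0.289, while Arntl with Npas2 kept 0.839 (adjusted p = 0.0179). With counts divided by effective length and then scaled by TMM factors, a setting chosen after seeing the data, Npas2 with Dbp gave -0.869 (adjusted p = 0.0114) and all 6 pairs of activators with output factors were below 0. Arntl with Dbp and Npas2 with Nr1d2 did not pass there (adjusted p = 0.0724 for each). With total counts only, also chosen after seeing the data, Npas2 with Dbp gave -0.913 (adjusted p = 0.00045) and Npas2 with Nr1d2 did not pass (adjusted p = 0.197). With log2(TPM + 0.1), Npas2 with Dbp gave -0.601 (adjusted p = 0.113). The cause of these differences was not tested.

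By the same within-diet measure, the genes most like Arntl among 8770 genes with a mean of at least 5 CPM were Fbxl17 (r = 0.914), an F-box gene, Pxmp4 (0.903), a peroxisomal membrane gene, Clpx (0.881), a mitochondrial protease subunit, Ube2q2 (0.877), a ubiquitin-conjugating enzyme, and Notch1 (0.851), a receptor. Those most like Dbp were Mrpl17 (0.899), of the mitochondrial ribosome, Ppp1r1b (0.870), a phosphatase inhibitor, Galk1 (0.867), galactokinase, Tspan4 (0.862), a tetraspanin, and Serping1 (0.861), the complement inhibitor. The 15 livers share depth and scaling across all genes, and these values are a description.

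Transcripts of the 10 genes were also compared, and Clock was singled out after its values were seen. Clock-201 and Clock-205 share all 20 coding exons and differ in the first exon and in the 3′ end, which is 2309 bases longer in Clock-205. Clock-201 made up 29.6, 34.4, 33.4, 31.3 and 31.5% of Clock TPM in the ketogenic livers, 22.4, 23.2, 33.6, 18.4 and 21.01% in the high-fat livers, and 0, 2.00, 3.30, 0 and 5.01% in the chow livers. Both diets lay wholly above chow. The estimated reads behind these shares were 762 to 989, 327 to 831 and 0 to 81.3.

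A shift of at least 20 percentage points without overlap was seen for 0.403% of 20089 transcripts between the ketogenic diet and chow, for 0.114% between the high-fat diet and chow, and for 0.164% between the ketogenic and high-fat diets. Clock-201 met this in both comparisons with chow only. These reads were divided between transcripts by kallisto, a 0 can be an estimate that failed, and no test was made. The mean effective length per library, weighted by TPM, was 1262 to 1322 bases in ketogenic, 1059 to 1216 in high-fat and 1044 to 1190 in chow livers. High-fat livers 9, 10 and 11 had 1084, 1059 and 1125 bases. High-fat livers 12 and 14, with the most Npas2 and the least Dbp of that diet, had 1214 and 1216. Among ketogenic livers, liver 8, with the most Npas2, instead had the shortest mean (1262). The part of this length in the shares and in the pairs was not tested.

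**Figure D5:**
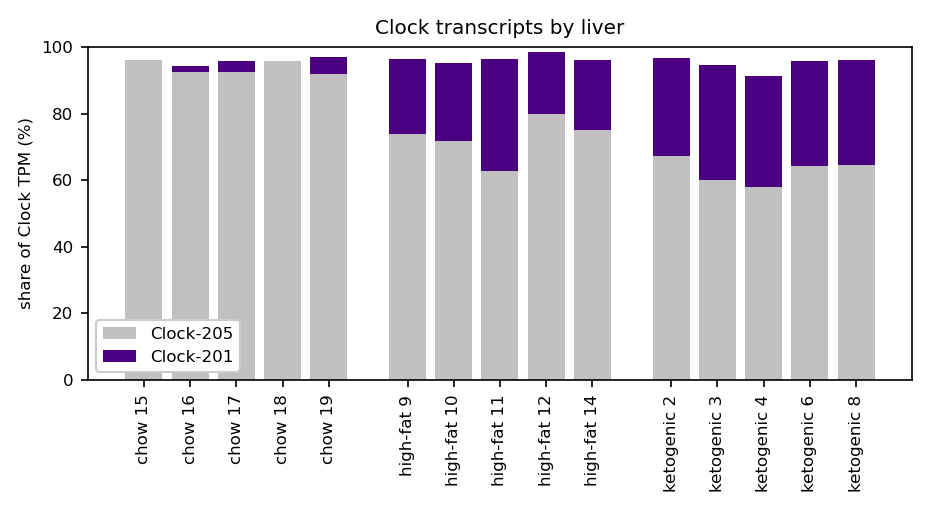
Share of Clock TPM (vertical axis, percent) assigned to Clock-205 (grey) and Clock-201 (purple) in each of 15 livers. Clock-201 takes 18.4 to 34.4% on the ketogenic and high-fat diets and at most 5.01% on chow.

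A further 10 genes belong to the transcription loop, of which 9 were tested. On the ketogenic diet 2 of the 9 rose against chow and none fell, a share near that of all genes (16.2% rose, 14.6% fell). These were Per3 (log2 0.53, adjusted p = 0.0284), the third Per gene, and Hlf (log2 0.68, adjusted p = 6.46e-06), the sister of Dbp and Tef. Cry1 (-0.02), Cry2 (0.19), Rora (0.19), Nfil3 (-0.16), Bhlhe40 (-0.16) and Bhlhe41 (-0.04) were among those that did not pass. Rorb, at 0 to 6 reads per library, was not tested. High-fat livers had 4 of 9 that rose, against 8.30% of all genes, namely Cry2 (0.31), Per3 (0.54), Hlf (0.33) and Bhlhe41 (0.69). Bhlhe41, a repressor also called Dec2, was lower on the ketogenic than on the high-fat diet (-0.74, adjusted p = 0.0147) with 21 to 68 reads per library, and Hlf was higher (0.35, adjusted p = 0.00479). Dbp, Tef and Hlf, which bind D-box sequences, each rose on the ketogenic diet, though Hlf is from a list whose share was near the background. Nfil3, which competes for the same sites, gave a value of -0.16 (adjusted p = 0.301).

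Of 8 genes that modify or degrade clock proteins, 3 rose on the ketogenic diet and none fell, beside 16.2% and 14.6% of all genes. In either direction 30.8% of all genes changed, and the share called among the 8 was near that. Usp2, a deubiquitinase with clock proteins among its substrates, rose 2.54-fold (log2 1.35, adjusted p = 0.000464), Fbxw11 by 0.24 (adjusted p = 0.00289) and Gsk3b, a kinase, by 0.35 (adjusted p = 0.00358). The casein kinases Csnk1d (-0.02) and Csnk1e (0.03) did not pass. None of the 8 passed on the high-fat diet.

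Of 13 known rhythmic outputs of liver, 8 rose on the ketogenic diet and none fell, beside 16.2% and 14.6% of all genes. Those with the smallest adjusted p were Insig2 (log2 1.18, adjusted p = 3.1e-06), a brake on sterol synthesis, Por (1.34, adjusted p = 8.68e-06), the electron donor of cytochromes P450, and Nampt (0.65, adjusted p = 0.000402), the NAD salvage enzyme. The median of the 13 was 0.49. Of the 5 that did not pass, the lowest stood at -0.75 (adjusted p = 0.0509). On the high-fat diet 3 rose and 1 fell (8.30% and 7.32% of all genes), the last being Cyp7a1, the rate-limiting enzyme of bile acid synthesis (-0.75, adjusted p = 0.0197). Several of these genes answer to lipid and nuclear receptor signals as well, and that part was not tested.

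Glucocorticoids and body temperature are known to set clocks in peripheral tissues. Of 6 glucocorticoid-induced genes, 1 rose on the ketogenic diet and none fell, a share near that of all genes (16.2% rose). It was Fkbp5 (log2 1.92, adjusted p = 5.1e-05). Tsc22d3 (0.42, adjusted p = 0.271) and Dusp1 (0.29, adjusted p = 0.386) did not pass. On the high-fat diet Fkbp5 (1.40, adjusted p = 0.0021) and Dusp1 (0.76, adjusted p = 0.0453) rose, 2 of 6 beside 8.30% of all genes. Of 8 temperature-responsive genes, 4 rose and 1 fell on the ketogenic diet, beside 16.2% and 14.6% of all genes. Those that rose included the chaperones Hspa8 (1.22, adjusted p = 2.01e-06) and Hsph1 (1.04, adjusted p = 0.000678). Cirbp, an RNA-binding protein induced by cold, fell (-0.55, adjusted p = 0.000742), while Rbm3, also induced by cold, rose (0.50, adjusted p = 0.000562). The part of hormone or temperature signals in the clock values was not tested.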

How the data were processed

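RNA from 15 livers, 5 per diet, was measured. Per the submitters' processing notes, Trimmomatic 0.36, kallisto 0.44, edgeR 3.28 and build GRCm38.p6 were used, with no settings. The deposited files hold 1 line per transcript with an estimated count and a TPM, per the file headers. The other columns (length and effective length) entered only the length alternatives and the mean effective length.

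Estimated counts were summed per gene with GENCODE M21, which matched 105734 of 106332 transcripts, and rounded. The other 598, with 0.184 to 0.223% of reads, were left out. No source used here names the submitters' annotation release. edgeR 4.0.16 (R 4.3.3) fitted all 15 libraries with TMM factors, filterByExpr (minimum count 10, total 15) and robust quasi-likelihood dispersion, with Benjamini-Hochberg adjustment over the 13967 genes at 0.05. The common biological coefficient of variation was 0.1306. Every adjusted p of a gene is from this test unless limma (3.58.1) or DESeq2 (1.42.0) is named. Pairs used log2 CPM (prior count 2) less the diet mean, with two-sided permutation tests. The scripts were tested on simulated data.

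Each library was taken as 1 mouse. Nothing in the labels says so, and p-values measure the spread between these libraries. The 10 genes and the lists were chosen with earlier results of these data known. All members and the further loop genes are named, except that some listed genes are not reported here, with up to 3 genes of smallest adjusted p in the ketogenic comparison per other list. Cirbp, Cyp7a1 and the genes given beside them as not passed were picked with their values in view. Positions are from GENCODE M21 and promoters from RefSeq.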

Additional observations from a re-analysis of the deposited data

How the results depend on the processing

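Each comparison was refitted under 18 alternatives. The members called numbered 6 to 8 (ketogenic against chow), 3 to 5 (high-fat against chow) and 2 to 5 (ketogenic against high-fat). The highest, 5 in the last, came from limma on log2(TPM + 1), where the all-gene median moved and 97.1% of called genes were higher (50.1% in the count fit). With total counts only 70.6% were higher.
In the ketogenic comparison with chow these shares were 94.5% and 68.5% (52.6% in the count fit), and in the high-fat comparison 27.8% with limma (53.1%), where 461 genes were called in place of 2182. Mean arm balance on chow was 0.79 on log2(TPM + 1) in place of 1.72. With total counts only, 3 pairs passed in place of 6, and 5, 4 and 4 did on log2(TPM + 1), length-scaled counts and log2(TPM + 0.1). The total-count, length-scaled and 0.1 settings for pairs were chosen after seeing the data. The causes were not tested.

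Directions of diet differences in the 10 genes changed only for values that had not passed. Leaving out 1 library moved Per1 (high-fat against chow) from -0.19 to 0.25, Nr1d1 (ketogenic against high-fat) from -0.31 to 0.13 and Per2 (ketogenic against high-fat) from -0.18 to 0.0656. In that last comparison Nr1d1 was 0.022 with effective length offsets and Per2 was 0.23 with limma on log2(TPM + 1). Npas2 passed there with DESeq2 (adjusted p = 0.0228), with only those diets in the fit (0.0452) and in 1 setting without a library, high-fat liver 10. The ketogenic calls against chow of Npas2, Nr1d2, Per2, Ciart, Dbp and Tef were kept in every alternative that could test them, 17 for Npas2 and 18 for the others. No paired analysis was possible because no label number recurs between diets. Npas2, Nr1d1, Dbp and Ciart rest on few reads. Per1 varied widely between livers on the high-fat diet and chow (coefficients of variation 51.3% and 48.9%).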
